A study of Homo sapiens with 4 samples.

Results

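The genes described here are 45 genes of the G1/S transition and of DNA replication, chosen by symbol for their known roles. Earlier results of these data were known when they and the other lists were chosen. Of the 45 genes, 44 had a row in the deposited table of 20372 genes, and UHRF1 was not analysed here. E2F2 had too few reads to be tested, which left 43 members among the 12794 genes tested. The cells were TPC1, a cultured line from a human papillary thyroid cancer in which RET is fused to CCDC6. They were treated for 24 h with BLU6864, a selective RET inhibitor, together with BGJ398, an inhibitor of FGF receptors (RETi + FGFRi, 2 libraries), or with BLU6864 by itself (RETi, 2 libraries). Both groups therefore carried RET inhibition, and cells given vehicle or BGJ398 without BLU6864 were not analysed here. The comparison asks what FGFR inhibition adds to RET inhibition. The dose is 100 µM in the labels but nanomolar in the study's methods, and its unit could not be settled. Nothing in the labels ties the libraries to separate cultures, so the p-values measure only the spread between these 4 libraries and that spread may be technical.

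Cells commit to replication when cyclin-dependent kinases release the E2F transcription factors, which switch on the genes of DNA synthesis. Replication origins are first licensed, when ORC, CDC6 and CDT1 load the MCM2 to MCM7 ring on DNA in G1, and are then fired, when CDC45 and the GINS complex turn that ring into the active helicase. Primase, the DNA polymerases and the PCNA clamp copy the opened strands from nucleotides that ribonucleotide reductase and related enzymes supply. Mitogen signaling through ERK is a known input to this program in many cell types.

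The libraries held 24695040 and 27151015 counts in RETi + FGFRi and 26486456 and 27457040 counts in RETi. Thyroid identity was partial, with PAX8 between 18290.3 and 20771 normalised counts in the 4 libraries while NKX2-1 and TSHR were at or near 0 in all 4 libraries. Of the blood cell markers, HBB had no read, PTPRC and CD3E had at most 3 reads in a library, and CD68 was present. Of the epithelial markers, KRT18 (log2 fold change -0.72, adjusted p = 7.1e-04) and KRT8 (-0.28, adjusted p = 0.024) were lower. KRT19 was not called (0.26, adjusted p = 0.46), and CDH1 and EPCAM were near 0. The epithelial list summed to 2038 and 2266 normalised counts in RETi + FGFRi, against 2887 and 2886 in RETi. Of the fibroblast markers LUM was higher (0.64, adjusted p = 0.027). COL1A1 (-0.33, adjusted p = 0.36) and PDGFRB (-0.25, adjusted p = 0.31) were not called. PDGFRA had at most 11 reads in a library, and COL1A2 and DCN were at or near 0. The fibroblast list summed to 282 and 264 in RETi + FGFRi and 252 and 289.6 in RETi. The part of these markers in the results was not tested. The 7 reference genes of ERK output were all lower after RETi + FGFRi, beside 11.3% of all genes tested. The median log2 fold change of these 7 was -2.13. In this list CCND1, the cyclin D1 gene, had 445 and 501 normalised counts in RETi + FGFRi, against 2065 and 2059 in RETi. DUSP6, an ERK phosphatase, had a log2 fold change of -1.67 and ETV4, an ETS factor, of -3.16.

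Replication genes were more often lower than higher after RETi + FGFRi. By edgeR's quasi-likelihood test at an adjusted p under 0.05, 19 of the 43 tested members (44.2%) were lower, 2 (4.65%) were higher and 22 were not called. Across all genes tested the same rule called 11.3% lower and 12.8% higher. The median log2 fold change of the members, RETi + FGFRi over RETi, was -0.34 (range -2.35 to 0.58), beside 0.00 over all genes tested. In 30 members both RETi + FGFRi libraries lay below both RETi libraries, in 7 both lay above, and in 6 the groups overlapped. Of all genes tested, 33% lay wholly below and 32.1% wholly above. With the thresholds named in the study's methods, a log2 fold change beyond 0.5 and p under 0.01, 12 members were lower and 1 was higher, beside 3.03% and 4.96% of all genes tested. In RNA from a whole culture, fewer cells in S phase and less of each mRNA per cell cannot be told apart.

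The count of calls varied with the libraries in the fit. There were 18 and 17 members called lower without RETi + FGFRi replicate 1 and replicate 2, when 1503 and 1441 of all genes were lower. Without RETi replicate 1 and replicate 2 there were 6 and 8, but calls over all genes were also fewer, 653 and 553 lower, against 1446 with all libraries. In each of these fits the lone library is assumed to vary like the other group. The RETi + FGFRi libraries were the farther apart, and the part of this in the counts of calls was not tested. Across these fits the members' median log2 fold change stayed between -0.37 and -0.29. DESeq2 called 10 lower and 2 higher, and gave no adjusted p for MCM10 and CDC45. CDC6, MCM4, RFC5 and RRM2 were lower, and RPA3 and DUT higher, under every alternative fit at an adjusted p under 0.05, and none of the 21 called members changed sign in any of them. DUT did not reach the fold change of the study's thresholds. MCM10, CDC45 and CLSPN passed the filter on low counts only through the RETi libraries, so that they were tested at all depended on being high there. Among the 40 members that were over the filter in both groups, 16 were lower and 2 were higher.

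**Figure D1:**
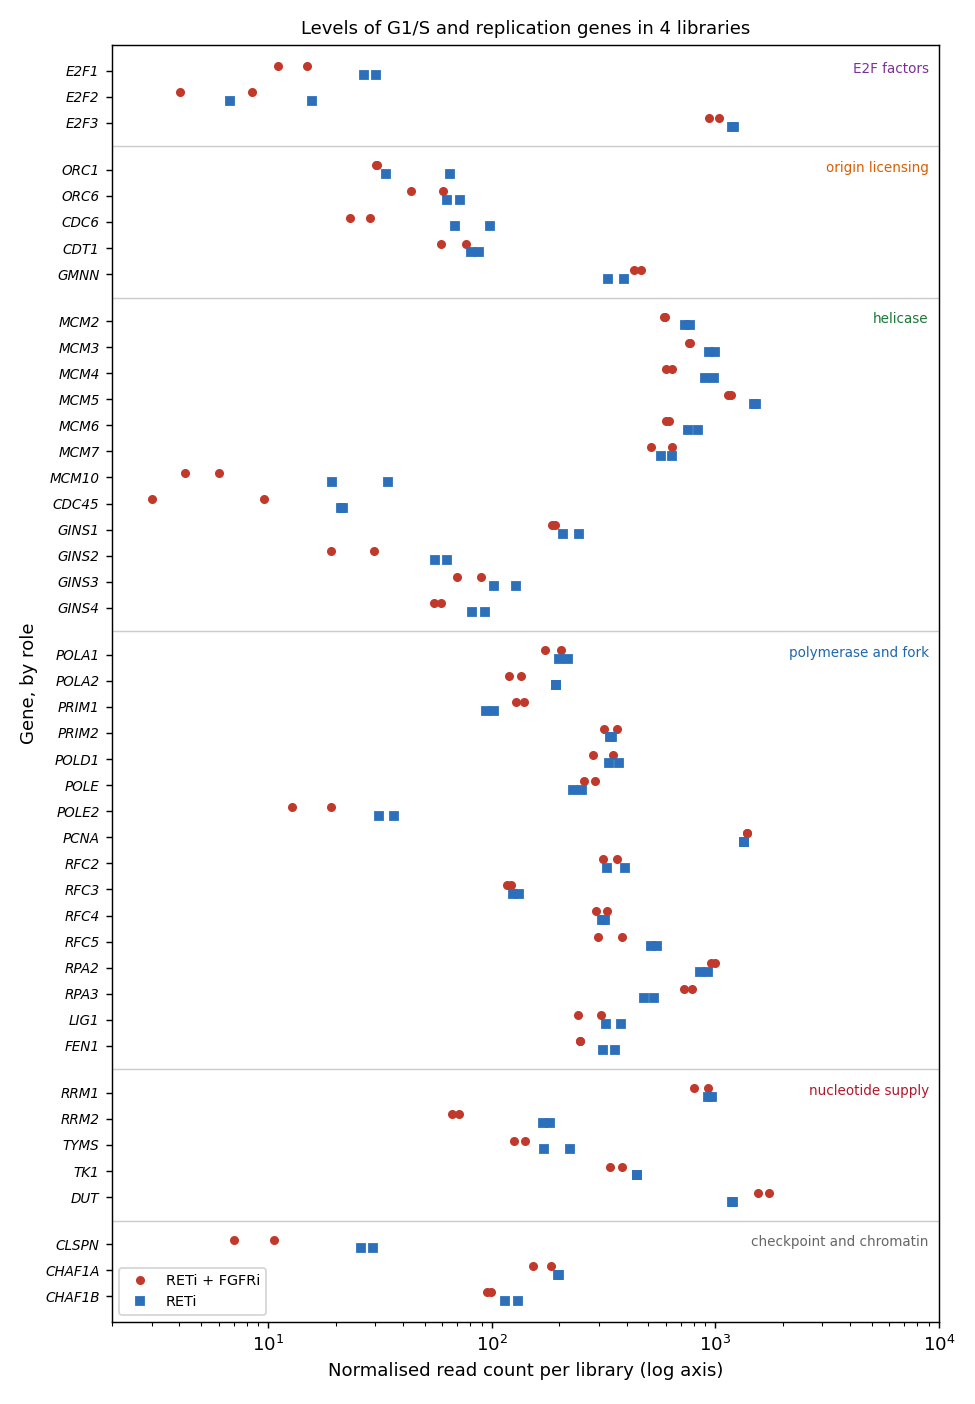
Normalised read count (log axis) of the 44 members in each library, by role, with RETi + FGFRi as circles in the upper line of each gene and RETi as squares in the lower line. PCNA lay between 1346 and 1389 in all 4 libraries, whereas MCM10, CDC45, CLSPN, CDC6, GINS2 and RRM2 were lower in both RETi + FGFRi libraries.

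E2F binding sequences mark the promoters of many of these genes, and the promoters are shown for members whose call and site could be set side by side. RefSeq promoters (GRCh38.p14, 250 bases before to 50 after a start) were found for 39 of the 44 members and searched on both strands for TTTCCCGC, TTTCGCGC, TTTGCCGC and TTTGGCGC, the E2F consensus. The consensus was in 43.4% of their 53 promoters, beside 3.31% of all 35116 promoters and 4.84% of the promoters of genes tested. Counting a gene once, it was present for 23 of the 39 members (59.0%), beside 6.69% of genes tested. It was present for 11 of 16 members called lower and for 10 of 21 members not called, a difference that was not tested. CCAAT, the NF-Y box, was in 52.8% of the member promoters and in 34.6% of all promoters. Below are upstream stretches of DUT, which was higher, and of GINS2, MCM6 and POLA2, which were lower, read 5′ to 3′ on the strand of the gene with matches in capitals. GCGGGAAA and GCGCGAAA are the reverse complements of TTTCCCGC and TTTCGCGC.
DUT promoter (chr15:48332115-48332196, plus strand): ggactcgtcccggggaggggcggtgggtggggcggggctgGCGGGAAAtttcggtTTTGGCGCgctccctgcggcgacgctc
GINS2 promoter (chr16:85688955-85689025, minus strand): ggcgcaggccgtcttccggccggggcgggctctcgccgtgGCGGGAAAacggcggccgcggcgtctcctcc
MCM6 promoter (chr2:135876486-135876635, minus strand): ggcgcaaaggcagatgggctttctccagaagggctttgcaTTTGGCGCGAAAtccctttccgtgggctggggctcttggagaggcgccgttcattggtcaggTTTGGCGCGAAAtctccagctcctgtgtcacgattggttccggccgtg
POLA2 promoter (chr11:65261869-65261956, plus strand): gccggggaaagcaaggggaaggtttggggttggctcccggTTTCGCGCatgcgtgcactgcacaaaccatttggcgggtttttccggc
In MCM6 each capital stretch holds a match on either strand, TTTGGCGC overlapping GCGCGAAA, which gives 4 matches in the window. The same 8 letters, GCGGGAAA, stand before a start of DUT and a start of GINS2, members with opposite calls. DUT had 4 promoters in this search, and only 1 of them, the one printed, held a match. A match is a description of the sequence and no binding was measured.

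The E2F activators were lower where they could be tested. E2F1, the activator best known for driving S phase entry (chromosome 20, 32263489 to 32274210, hg19), had 14.8 and 11.1 normalised counts in RETi + FGFRi, against 30.4 and 26.9 in RETi. The log2 fold change was -1.14 (SE 0.346, adjusted p = 0.035, edgeR), and the groups did not overlap. E2F3, a related activator, had 1039.9 and 939 normalised counts in RETi + FGFRi, against 1204 and 1186 in RETi, with a log2 fold change of -0.28 (SE 0.085 and adjusted p = 0.037). E2F2, the remaining activator, had 8.47 and 4.03 normalised counts in RETi + FGFRi and 15.7 and 6.71 in RETi, and these values overlap. Both E2F calls were lost without either RETi library or without RETi + FGFRi replicate 2, at an adjusted p of 0.128 to 0.221 for E2F1 and 0.134 to 0.152 for E2F3. DESeq2 gave an adjusted p of 0.185 for E2F1 and 0.081 for E2F3.

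Among other E2F, DP and pocket protein genes, 2 of 15 tested (13.3%) were lower and 1 (6.67%) was higher, beside 11.3% and 12.8% of all genes tested. E2F7, an atypical E2F that represses transcription, had 101 and 76.5 normalised counts in RETi + FGFRi, against 147 and 124 in RETi, a log2 fold change of -0.62 (adjusted p = 0.036). RB1, the retinoblastoma pocket protein that restrains E2F, differed by a log2 fold change of -0.23 (adjusted p = 0.041). LIN52, a subunit of the DREAM and MuvB complexes, was higher by 0.42 on the log2 scale (adjusted p = 0.028), and LIN9 of the same complexes had 0.34 and missed the threshold (adjusted p = 0.12). The median of this list was 0.03.

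Of the 5 origin licensing members, CDC6 alone passed the test, which is 20% called lower, beside 11.3% of all genes tested. CDC6, the ATPase that recruits the MCM ring to ORC (chromosome 17, 38443885 to 38459171, hg19), had 28.6 and 23.2 normalised counts in RETi + FGFRi, against 98.1 and 68.1 in RETi. It was 3.21-fold lower, or -1.68 on the log2 scale (SE 0.272, adjusted p = 0.0021). Every RETi + FGFRi value was less than the lower RETi value.

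The partners of CDC6 in licensing did not pass the test. ORC1, the large ORC subunit, had 30.7 and 30.2 normalised counts in RETi + FGFRi, against 64.7 and 33.6 in RETi (log2 fold change -0.69, adjusted p = 0.15), and the RETi libraries were far apart. ORC6, the small ORC subunit, had 43.4 and 60.4 in RETi + FGFRi and 62.8 and 71.9 in RETi (-0.37, adjusted p = 0.26). CDT1, the MCM loader that is active in G1, had 59.3 and 76.5 in RETi + FGFRi and 80.4 and 87.3 in RETi (-0.30, adjusted p = 0.29). GMNN, which encodes geminin, the inhibitor of CDT1, leaned the other way. It had 432 and 464 normalised counts in RETi + FGFRi, against 330.5 and 389 in RETi. The log2 fold change was 0.31 (adjusted p = 0.065), so that GMNN missed the threshold. With 1 library left out at a time it ranged from 0.20 (without RETi replicate 1) to 0.44 (without RETi replicate 2).

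Ratios within a library do not depend on how libraries are scaled. The CDT1 to GMNN ratio of raw counts was 0.137 and 0.165 in RETi + FGFRi, against 0.243 and 0.224 in RETi. The CDC6 to ORC6 ratio was 0.659 and 0.383 in RETi + FGFRi, against 1.56 and 0.947 in RETi. Neither ratio overlapped between the groups, and the share of other gene pairs that do not overlap was not computed. An exact permutation test of 2 libraries against 2 cannot go below a two-sided p of 0.333, so the ratios were not tested.

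Other licensing and firing factors were mostly uncalled, with 2 of 23 (8.70%) lower and 1 (4.35%) higher, beside 11.3% and 12.8% of all genes tested. The median of this list was -0.11 on the log2 scale. CDCA5, which encodes sororin, a factor of sister chromatid cohesion, had 46.6 and 31.2 normalised counts in RETi + FGFRi, against 67.7 and 67.1 in RETi (-0.80, adjusted p = 0.038). LRWD1, an ORC-associated protein, differed by -0.37 (adjusted p = 0.043). ORC4, a core ORC subunit, was higher by 0.32 on the log2 scale (adjusted p = 0.015). MCM8, a helicase outside the ring that acts in recombination, had a log2 fold change of -0.54 (adjusted p = 0.068), which missed the threshold. CCNE1, the cyclin E gene, had a log2 fold change of -0.71 that missed the threshold (adjusted p = 0.091), as did CCNE2 (-0.66, adjusted p = 0.13). TICRR, also uncalled, leaned the other way (0.55, adjusted p = 0.13). Of the 23 log2 fold changes, 16 were negative and 7 were positive.

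Helicase genes were the role with the most members called lower, 9 of 12, and their median log2 fold change was -0.46, beside 11.3% called lower over all genes tested. Without RETi replicate 1 the count was 2, as many as in nucleotide supply, without RETi replicate 2 it was 5, and it was 4 at the study's thresholds. In 11 of the 12 both RETi + FGFRi libraries lay below both RETi libraries, beside 33% of all genes tested. The sum of their normalised counts was 4751 and 4619 in RETi + FGFRi, against 6281 and 5901 in RETi. Of the 10 that were over the filter on low counts in both groups, 7 were lower. The share called was not tested against that of any other role.

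Of the 6 MCM ring genes 5 were lower, beside 11.3% of all genes tested, with log2 fold changes of -0.61 to -0.34. MCM4, one of the 6 ring subunits, had 639 and 601 normalised counts in RETi + FGFRi, against 988 and 899 in RETi, a 1.52-fold difference (log2 fold change -0.61, SE 0.089, adjusted p = 0.0013). MCM5, another ring subunit, had 1143 and 1176 in RETi + FGFRi, against 1483 and 1515 in RETi (-0.37, SE 0.076, adjusted p = 0.0062). MCM6 had 618 and 601 in RETi + FGFRi, against 832 and 756 in RETi (-0.38, adjusted p = 0.012). In MCM2 and MCM3 the log2 fold changes were -0.35 and -0.34, with adjusted p of 0.015 and 0.014. The groups did not overlap in any of these 5 genes, and 33% of all genes tested lay wholly below.

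MCM7 was the ring gene not called. It had 641 and 514 normalised counts in RETi + FGFRi and 637 and 569.6 in RETi, which overlap, and a log2 fold change of -0.07 (95% interval -0.32 to 0.19, adjusted p = 0.71). Its row shares coordinates with AP4M1, so reads of either gene could have been split by the counting. Without RETi replicate 1 the adjusted p was 0.113 for MCM2, 0.112 for MCM3 and 0.104 for MCM6, and without RETi replicate 2 it was 0.057 for MCM2 and 0.056 for MCM5. The MCM4 call held in each of these fits.

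MCM10 and CDC45, which act when the loaded ring is made into an active helicase, had few reads and larger fold changes. MCM10, a firing factor that is no part of the ring (chromosome 10, 13203554 to 13253104, hg19), had 4.24 and 6.04 normalised counts in RETi + FGFRi, against 34.3 and 19.2 in RETi. The log2 fold change was -2.35 (SE 0.492, adjusted p = 0.0074), the lowest among the members. CDC45, the cofactor that joins the ring at firing, had 9.53 and 3.02 in RETi + FGFRi, against 21.6 and 21.1 in RETi (-1.77, SE 0.49, adjusted p = 0.025). At these counts the size of either change is uncertain, with 95% intervals of -3.43 to -1.26 for MCM10 and -2.84 to -0.69 for CDC45. The MCM10 call was lost without RETi replicate 1 (adjusted p = 0.097), and the CDC45 call without either RETi library or without RETi + FGFRi replicate 2 (0.11 to 0.132).

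The 4 GINS genes encode a complex with 1 copy of each subunit, and their changes were uneven. GINS2 had 29.7 and 19.1 normalised counts in RETi + FGFRi, against 62.8 and 55.6 in RETi, or -1.28 as log2 fold change (SE 0.277, adjusted p = 0.0085). GINS4 had 55.1 and 59.4 in RETi + FGFRi, against 81.4 and 93.0 in RETi (-0.61, adjusted p = 0.044). GINS3 had 69.9 and 89.6 in RETi + FGFRi, against 128 and 102 in RETi (-0.53, adjusted p = 0.073), and GINS1 had a log2 fold change of -0.26 (adjusted p = 0.19). All 4 genes lay lower in both RETi + FGFRi libraries, as did 33% of all genes tested, and the calls covered only GINS2 and GINS4. The GINS2 to GINS3 ratio was 0.424 and 0.213 in RETi + FGFRi, against 0.489 and 0.547 in RETi. The GINS4 call was lost without any single library (adjusted p from 0.059 to 0.275) and in DESeq2 (0.194), and the GINS2 call without RETi replicate 1 (0.052). Reads of GINS2 could be split with GSE1, which shares its coordinates and was higher (log2 fold change 0.29).

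Levels can be set against each other only per length, and a length-scaled level was computed as counts per coding length, scaled to the same sum in every library as TPM values are. On that scale MCM5 was the highest of the ring, at 18.6 and 17.3 in RETi + FGFRi and 25.1 and 25.3 in RETi. The other ring subunits had length-scaled levels of 7.05 to 11.3 in RETi + FGFRi and 9.72 to 15.3 in RETi. MCM2 and MCM7, the lowest of the ring in RETi by coding length, overlapped there, at 10.6 and 9.90 for MCM2 and 11.0 and 9.72 for MCM7. CDC45 had length-scaled levels of 0.201 and 0.0578 in RETi + FGFRi and 0.473 and 0.458 in RETi. MCM10 had 0.0578 and 0.0748 in RETi + FGFRi and 0.487 and 0.269 in RETi, so both firing factors lay far below the ring in all 4 libraries. GINS1 was at 11.3 and 10.6 in RETi + FGFRi and 15.5 and 13.0 in RETi, in the range of the ring by coding length. By transcript length, an alternative chosen after seeing the data, GINS1 was at 4.59 and 4.34 in RETi + FGFRi and 6.30 and 5.27 in RETi, below every ring gene. The order within the ring changed too, with MCM6 and MCM2 lowest in RETi, while MCM5 remained the highest and MCM10 and CDC45 stayed below the ring.

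**Figure D2:**
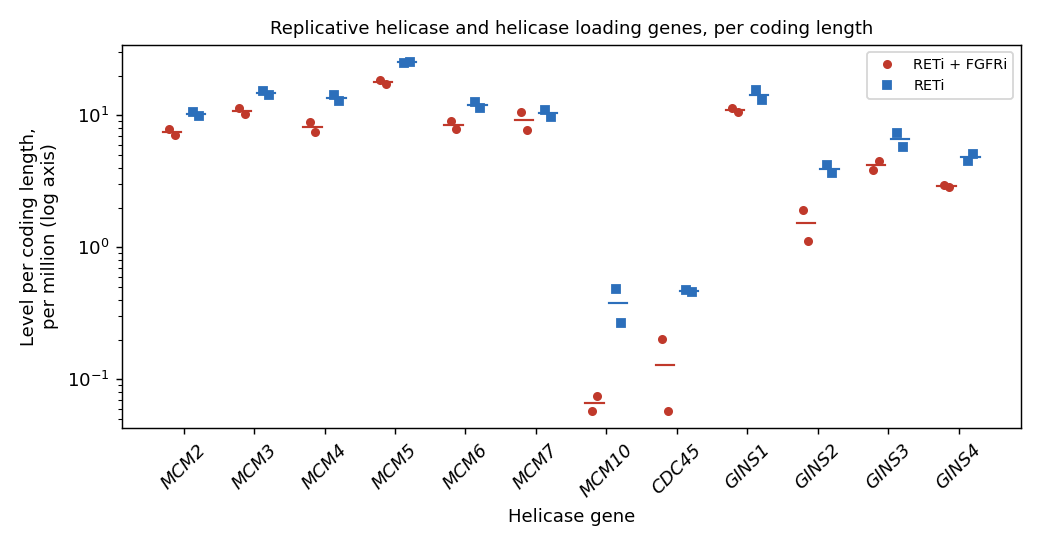
Length-scaled level (counts per coding length, scaled as TPM values are, log axis) of the 12 helicase genes in each library, with RETi + FGFRi as circles on the left, RETi as squares on the right and a bar at the mean of each group. By coding length MCM5 was the highest ring gene in both groups, and MCM10 and CDC45 were the lowest of the 12.

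Polymerase and fork genes were mostly uncalled. Of 16 tested members 4 were lower and 1 was higher, beside 11.3% and 12.8% of all genes tested. The count of lower calls was 1 without either RETi library and 2 in DESeq2. Their median log2 fold change was -0.10, and in 5 the groups overlapped, as they did in 4459 of the 12794 genes tested. The sum of their normalised counts was 6178 and 6108 in RETi + FGFRi, against 6325 and 6143 in RETi, and those sums overlap.

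PCNA, the sliding clamp, was level across the libraries. It had 1389 and 1387 normalised counts in RETi + FGFRi and 1347 and 1346 in RETi, with a log2 fold change of 0.04 (95% interval -0.12 to 0.20, adjusted p = 0.73). On the length-scaled measure PCNA was at 63.5 and 57.5 in RETi + FGFRi and 64.1 and 63.3 in RETi. KIAA0101, the PCNA-associated factor, was higher, with 389.7 and 453 normalised counts in RETi + FGFRi, against 259.9 and 259 in RETi (log2 fold change 0.70, adjusted p = 0.0023).

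Of the 4 clamp loader subunits among the members, RFC5 alone was called lower, beside 11.3% of all genes tested. RFC5 (chromosome 12, 118451393 to 118470935, hg19) had 380.2 and 297 normalised counts in RETi + FGFRi, against 547 and 515 in RETi, a 1.57-fold difference (log2 fold change -0.65, SE 0.124, adjusted p = 0.0046). RFC2, RFC3 and RFC4 had log2 fold changes of -0.09, -0.11 and -0.03, with adjusted p of 0.63 to 0.89. RFC1, the large subunit and not among the members, was also lower, by a log2 fold change of -0.39 (adjusted p = 0.0083). RFC5 shares coordinates with WSB2, which was itself lower by a smaller amount (log2 fold change -0.24, adjusted p = 0.034), and RFC4 with EIF4A2, which was higher (0.40).

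Subunits of 1 polymerase did not always differ together. POLA2, the accessory subunit of polymerase alpha, had 136 and 119.8 normalised counts in RETi + FGFRi, against 194 and 194 in RETi (log2 fold change -0.61, adjusted p = 0.013). POLA1, its catalytic subunit, had 203 and 173 in RETi + FGFRi and 219 and 199 in RETi (-0.16, adjusted p = 0.45). PRIM1, the catalytic primase subunit of the same complex, had 139 and 128 in RETi + FGFRi, against 94.1 and 102 in RETi (0.44, adjusted p = 0.070). The 4 subunits of this complex thus held 1 gene called lower, beside 11.3% of all genes tested. PRIM2, the large primase subunit, had a log2 fold change of -0.01. PRIM1 shares coordinates with NACA, which was higher by 0.39 on the log2 scale (adjusted p = 0.020). The POLA2 to POLA1 ratio was 0.667 and 0.692 in RETi + FGFRi, against 0.888 and 0.971 in RETi, and the PRIM1 to PRIM2 ratio was 0.440 and 0.353 in RETi + FGFRi, against 0.278 and 0.295 in RETi. The POLA2 call was lost without RETi replicate 1 (adjusted p = 0.055) or RETi replicate 2 (0.077).

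Calls also varied among subunits of polymerase epsilon, which were not tested against each other. POLE2, an accessory subunit, had 12.7 and 19.1 normalised counts in RETi + FGFRi, against 31.4 and 36.4 in RETi (log2 fold change -1.08, SE 0.328, adjusted p = 0.036). POLE, the catalytic subunit, had 288 and 258 in RETi + FGFRi and 231 and 252 in RETi (0.17, adjusted p = 0.35). POLE4, a small subunit outside the members, was higher by 0.43 on the log2 scale (adjusted p = 0.0093). POLE3, also outside the members, had a log2 fold change of -0.04 (adjusted p = 0.78). The POLE2 to POLE ratio was 0.0441 and 0.0742 in RETi + FGFRi, against 0.136 and 0.144 in RETi. The POLE2 call was lost without RETi replicate 1 (adjusted p = 0.112), without RETi replicate 2 (0.229), without RETi + FGFRi replicate 1 (0.136) and in DESeq2 (0.169). POLD1, the catalytic subunit of polymerase delta, had a log2 fold change of -0.17 (adjusted p = 0.37).

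The single-strand binding complex differed in both directions. RPA3, its small subunit (chromosome 7, 7676149 to 7758238, hg19), had 726 and 783 normalised counts in RETi + FGFRi, against 481 and 530.3 in RETi. It was 1.49-fold higher (log2 fold change 0.58, SE 0.093, adjusted p = 0.0020), the highest fold change among the members. RPA2, the middle subunit, had a log2 fold change of 0.13 (adjusted p = 0.27). RPA1, the large subunit and no member, was lower, with 2212 and 2327 normalised counts in RETi + FGFRi, against 2835 and 2739.7 in RETi (-0.30, adjusted p = 0.014). RPA3 overlaps RPA3-AS1, an antisense gene (log2 fold change 0.23, adjusted p = 0.11), and the sources used here do not give whether reads were counted by strand.

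Enzymes that join lagging-strand fragments leaned lower. FEN1, the flap endonuclease, had 249 and 248 normalised counts in RETi + FGFRi, against 357 and 315 in RETi (log2 fold change -0.44, adjusted p = 0.022). LIG1, the ligase that seals the fragments, had 307 and 244 in RETi + FGFRi, against 378 and 322 in RETi (-0.35, adjusted p = 0.092). Neither pair of groups overlapped, beside 33% of all genes tested that lay wholly below, and FEN1 alone passed. The FEN1 call was lost without RETi replicate 1 (adjusted p = 0.186) or RETi replicate 2 (0.051) and in DESeq2 (0.068), whereas LIG1 passed without RETi + FGFRi replicate 1 (0.0069). FEN1 shares coordinates with TMEM258 and FADS2.

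Among 21 other polymerase and fork factors 5 (23.8%) were lower and 3 (14.3%) were higher, beside 11.3% and 12.8% of all genes tested. The median of this list was -0.04. WDHD1, which tethers polymerase alpha to the fork, had 74.1 and 73.5 normalised counts in RETi + FGFRi, against 146 and 108 in RETi (log2 fold change -0.79, adjusted p = 0.016). TOP1, a topoisomerase that relaxes overwound DNA ahead of the fork, differed by -0.40 (adjusted p = 0.0057), and POLD4, a small subunit of polymerase delta, by -0.33 (adjusted p = 0.012). RNASEH2C, a subunit of the nuclease that removes ribonucleotides from DNA, was higher by 0.45 on the log2 scale (adjusted p = 0.010).

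**Figure D3:**
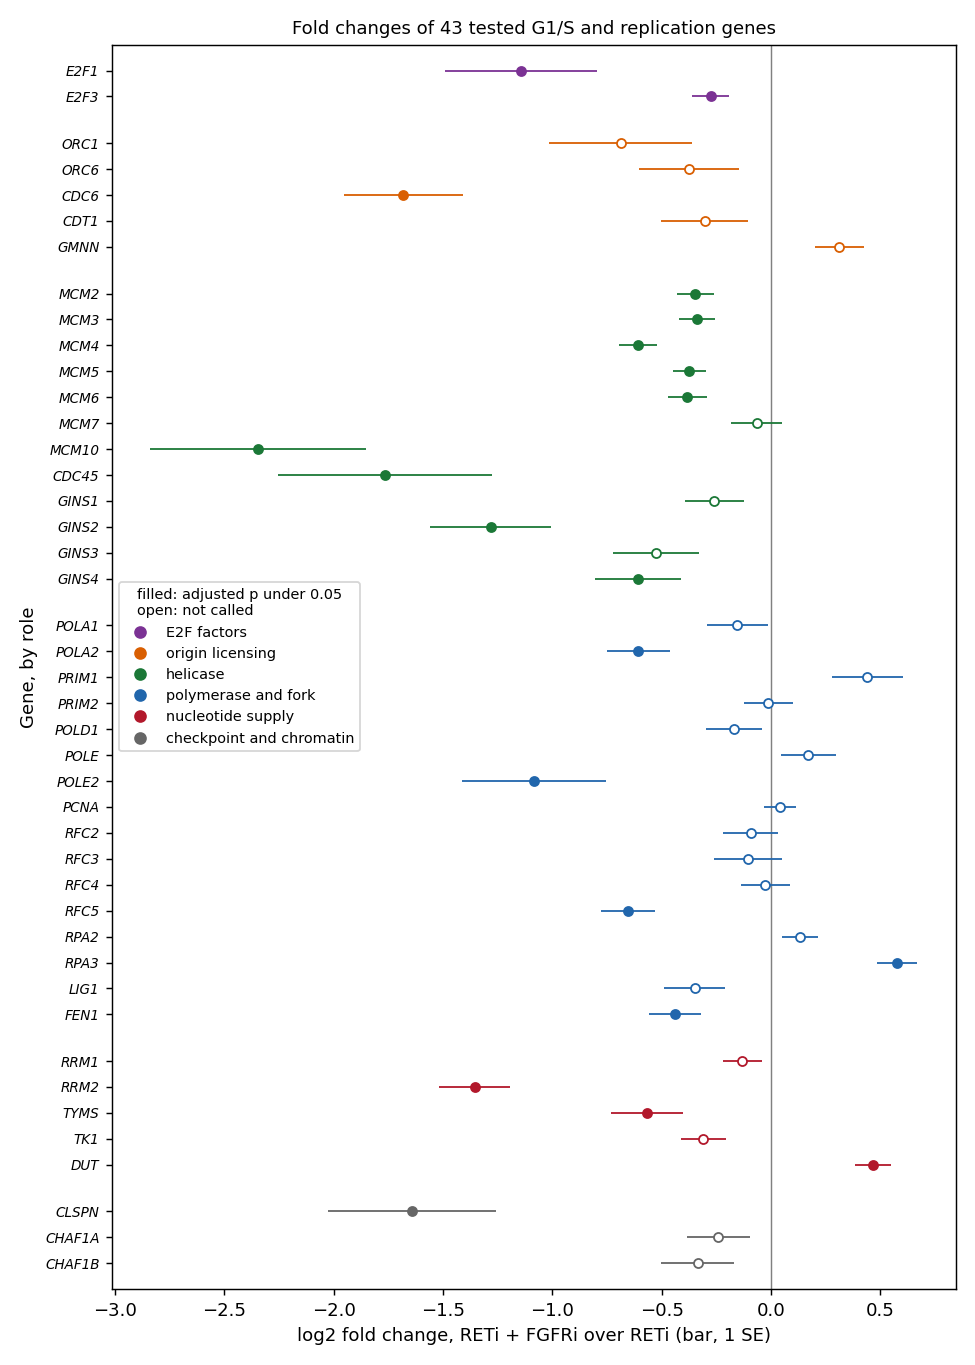
Log2 fold change of the 43 tested members, RETi + FGFRi over RETi, with a bar of 1 SE, by role, filled where the adjusted p was under 0.05. Helicase genes all lay left of 0, PCNA lay at 0.04, and RPA3 and DUT were the only filled points right of 0.

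Nucleotide supply genes included a pronounced fall and a rise. RRM2, the small subunit of ribonucleotide reductase that cells make in S phase (chromosome 2, 10262455 to 10271545, hg19), had 71.0 and 66.4 normalised counts in RETi + FGFRi, against 169.7 and 181 in RETi. It was 2.56-fold lower (log2 fold change -1.36, SE 0.162, adjusted p = 5.0e-04), the smallest adjusted p among the members. RRM1, the large subunit, had 805 and 924 in RETi + FGFRi and 961 and 929 in RETi (-0.13, adjusted p = 0.30). The RRM2 to RRM1 ratio was 0.0882 and 0.0719 in RETi + FGFRi, against 0.177 and 0.195 in RETi, 2.32-fold lower on average after RETi + FGFRi.

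DUT, the dUTPase that keeps uracil out of DNA (chromosome 15, 48623208 to 48635570, hg19), had 1545 and 1742 normalised counts in RETi + FGFRi, against 1194 and 1182 in RETi. It was 1.38-fold higher (log2 fold change 0.46, SE 0.082, adjusted p = 0.0032), and the groups did not overlap. TYMS, the thymidylate synthase, had 126 and 141 in RETi + FGFRi, against 171 and 224 in RETi (-0.57, adjusted p = 0.030). TK1, the thymidine kinase of S phase, had 337 and 384 in RETi + FGFRi, against 445 and 446 in RETi (-0.31, adjusted p = 0.053). The enzymes of dTMP supply thus held DUT called higher and TYMS called lower, with TK1 just short of the threshold. The TYMS call was lost without RETi replicate 2 and in DESeq2 (adjusted p = 0.075). TK1 was called in 3 of 9 alternative fits. Reads of TYMS could be split with ENOSF1, which shares its coordinates, and RRM2, DUT and PCNA have processed copies elsewhere in the genome whose share of reads is not known.

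Of 19 other nucleotide enzymes 3 (15.8%) were lower and 1 (5.26%) was higher, beside 11.3% and 12.8% of all genes tested. The median log2 fold change of these 19 was 0.00. MTHFD1, an enzyme of one-carbon folate metabolism, had 3151 and 3124 normalised counts in RETi + FGFRi, against 4523 and 4383 in RETi (-0.51, adjusted p = 0.0011). CTPS1, which makes CTP, had 394 and 382 in RETi + FGFRi, against 623 and 564 in RETi (-0.62, adjusted p = 0.0019). TK2, the mitochondrial thymidine kinase, differed by -0.36 (adjusted p = 0.022). DCK, the deoxycytidine kinase of the salvage pathway, was higher by 0.34 on the log2 scale (adjusted p = 0.038).

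Checkpoint and chromatin members included CLSPN, which encodes claspin, the adaptor that activates CHK1 at stalled forks. CLSPN had 10.6 and 7.05 normalised counts in RETi + FGFRi, against 29.4 and 25.9 in RETi (log2 fold change -1.64, SE 0.384, adjusted p = 0.012). The groups did not overlap, and the call was lost without RETi replicate 1 (adjusted p = 0.093) or RETi replicate 2 (0.070) and in DESeq2 (0.064). CHAF1A and CHAF1B, subunits of the CAF-1 chaperone that deposits histones behind the fork, had log2 fold changes of -0.24 and -0.34 (adjusted p of 0.24 and 0.16). Their ratio overlapped between the groups. CHAF1A shares coordinates with UBXN6 and CHAF1B with MORC3, as MCM2 does with TPRA1 and POLD1 with another gene of the table.

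Other checkpoint and chromatin factors included 2 lower and 2 higher of 22 tested (9.09% each), beside 11.3% and 12.8% of all genes tested. The median of this list was 0.01. ASF1B, a histone chaperone of S phase, had 23.3 and 17.1 normalised counts in RETi + FGFRi, against 73.5 and 70.0 in RETi (log2 fold change -1.83, adjusted p = 0.0011). FAM111B, a cell cycle regulated protease, had 6.35 and 8.05 in RETi + FGFRi, against 59.8 and 23.0 in RETi (-2.50, adjusted p = 0.0082). Like MCM10, CDC45 and CLSPN, FAM111B passed the filter on low counts only through the RETi libraries. That FAM111B was tested at all therefore depended on being high there, which limits its p-value. The RETi libraries were far apart for FAM111B. FAM111A, its paralog and a protease of replication forks, was higher by 0.33 on the log2 scale (adjusted p = 0.041), and CDC25B, a phosphatase that activates CDKs, by 0.59 (adjusted p = 0.0010).

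Fold change and level were related among the members. The 7 members with a mean under 50 normalised counts had log2 fold changes of -2.35 to -0.69 (median -1.28), and 6 were called lower. The 16 members between 50 and 300 had a median of -0.36 with 6 called lower, and the 20 members at 300 or more had a median of -0.15 with 7 lower and 2 higher. Over all genes tested the medians at these levels were 0.11, 0.05 and -0.02, with 3.83%, 7.02% and 13.7% called lower. Across the 43 members the log2 fold change and the log2 mean level had Pearson's r of 0.73 and Spearman's rho of 0.62, and across the 36 with a mean of 50 or more r was 0.43 and rho 0.36. These are descriptions across genes of the same 4 libraries. A gene that is low in RETi + FGFRi has a lower mean, so the measures are not independent, and MCM10, CDC45 and CLSPN passed the filter only through RETi. Over all genes tested r was -0.08.

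**Figure D4:**
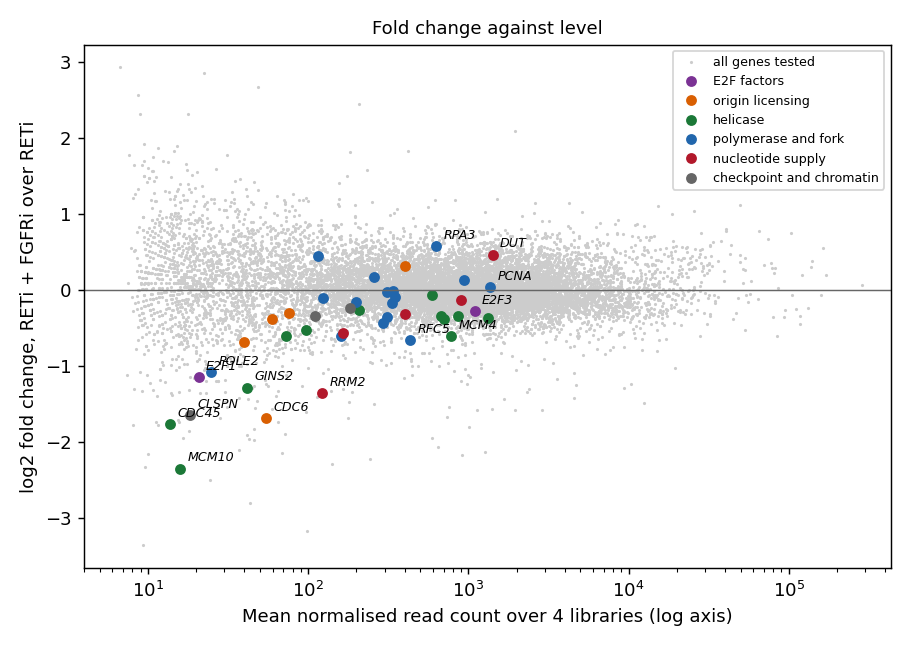
Log2 fold change, RETi + FGFRi over RETi, against the mean normalised read count of the 4 libraries (log axis), with all 12794 genes tested in grey and the members coloured by role. The 7 members with a mean under 50 all lay below -0.68, while PCNA, DUT and RPA3 lay above 0.

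**Figure D5:**
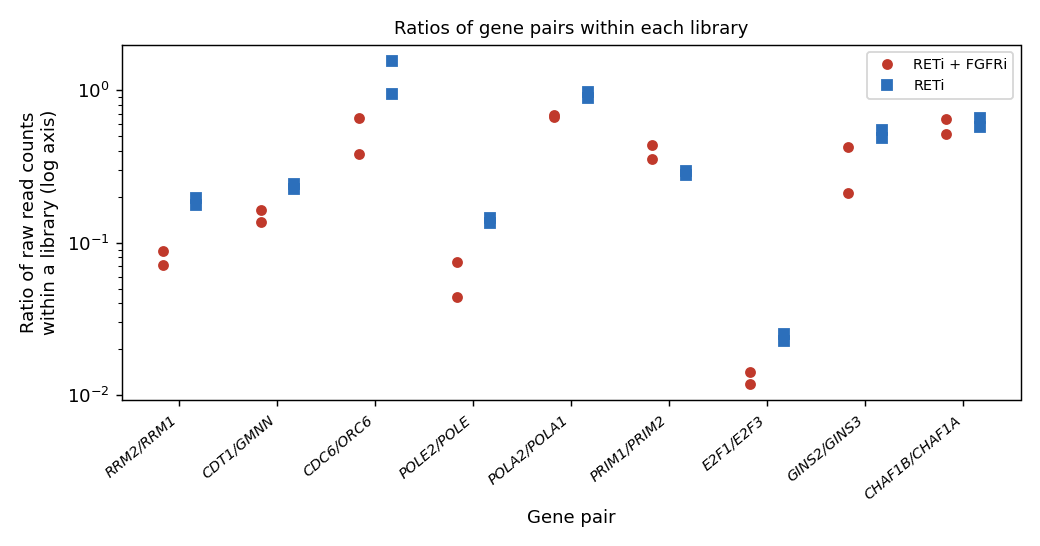
Ratio of raw read counts of gene pairs within each library (log axis), with RETi + FGFRi as circles on the left and RETi as squares on the right. RRM2 to RRM1 was at 0.0719 to 0.0882 in RETi + FGFRi and 0.177 to 0.195 in RETi. The groups did not overlap in 8 of the 9 pairs, and CHAF1B to CHAF1A overlapped. The share of other gene pairs that do not overlap was not computed. Of single genes tested, 33% lay wholly below and 32.1% wholly above.

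Mitosis and G2/M genes, listed for comparison, gave 12 lower (34.3%) and 2 higher (5.71%) of 35 tested, beside 11.3% and 12.8% of all genes tested. The median of this list was -0.40 on the log2 scale. MYBL2, a transcription factor that the E2F program induces, had 86.8 and 86.6 normalised counts in RETi + FGFRi, against 157 and 149 in RETi (-0.82, adjusted p = 0.0048). TPX2, a spindle assembly factor, differed by -0.56 (adjusted p = 0.0059), AURKB, the kinase of the chromosomal passenger complex, by -0.88 (adjusted p = 0.015), and ANLN, a scaffold of cytokinesis, by -0.40 (adjusted p = 0.018). MKI67, a common marker of cycling cells, had 232 and 80.5 normalised counts in RETi + FGFRi and 222 and 179 in RETi, so 1 RETi + FGFRi library lay above and the other below both RETi libraries (-0.37, adjusted p = 0.46). Lower calls were thus found in the replication members and in the mitotic list, and the lists were not tested against each other.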

How the data were processed

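Per the labels, total RNA of TPC1 cells was made into TruSeq libraries and read on a HiSeq (single-end, 50 bp). STAR 2.3, DESeq2 and hg19 are named in the submitters' processing notes. The methods of the study describe paired-end reads and a later STAR release, and which applies here is not settled by the values. The sources used here do not give the counting tool or its use of strand. Raw counts of reads per gene were deposited by the authors, along with normalised counts (a signal made by dividing a library's counts by its size factor), which are the levels printed here. They also deposited their own comparison (fold changes, standard errors, p-values), which was not used.

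Raw counts of all 4 libraries were fitted in edgeR 4.0.16 (R 4.3.3) with TMM scaling, filterByExpr (minimum count 10) and a quasi-likelihood F-test without covariates. The fit was tested on simulated data with changes in well-counted genes only, so members under 50 normalised counts were not covered. CDC6, ORC6, GINS4, CDT1 and GINS3, with means of 54.5 to 97.4 normalised counts, were not covered either. P-values were adjusted by Benjamini-Hochberg over 12794 genes. An SE is the log2 fold change divided by the square root of F, and 95% intervals are unadjusted. The fit had 2 residual and 8.96 prior degrees of freedom and a biological coefficient of variation of 6.39%. Libraries of a group differed by more than sampling noise (chi-square per degree of freedom 14.0 within RETi + FGFRi and 7.91 within RETi), so none were merged. E2F1, E2F2, E2F3, up to 5 members with the smallest p in each role and every member that rose were given by library, the other members by fold change. In each other list up to 4 genes with the smallest p were named, with CCND1, DUSP6 and ETV4. Further genes (such as RPA1, WDHD1, POLD4, RNASEH2C, CCNE1, CCNE2 and MKI67) and further values by library were chosen after their values were seen. Members and lists were chosen with earlier results of these data known. Coordinates of genes are as deposited (hg19), coding lengths are of GENCODE v44 canonical transcripts (92.8% of genes, all 44 members) and promoters are RefSeq GRCh38.p14. The stretches printed are those of the members with the smallest p that had a consensus match before the start. Alternatives were DESeq2 1.42.0, RLE and library-total scaling, no filter, a replicate block, the study's thresholds and leaving out each library.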

Additional observations from a re-analysis of the deposited data

How the results depend on the processing

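With 2 libraries a group, 1 library can end most calls. Leaving out 1 library at a time gave 6 to 18 members called lower, 0 to 2 E2F factors, 2 to 8 helicase genes, 1 to 4 polymerase and fork genes, 1 to 3 nucleotide supply genes and 0 to 1 checkpoint and chromatin genes. The members' median log2 fold change then ranged from -0.37 to -0.29, and over all genes 553 to 1503 were called lower and 691 to 1942 higher. DESeq2 called 10 members lower, with 2 polymerase and fork genes, 1 nucleotide supply gene, 0 E2F factors and 0 checkpoint and chromatin genes, where edgeR called 2 E2F factors and 1 checkpoint and chromatin gene. At an unadjusted p under 0.05 DESeq2 gave 1 lower in each of those last groups, and where edgeR without 1 library gave 0 it had 1 or 2 E2F factors and 1 checkpoint and chromatin gene. The study's thresholds gave 12 members lower and 1 higher, 1 E2F factor and 4 helicase genes lower, and 388 genes lower and 634 higher in all. The cause of these differences was not tested. In the fits that leave out 1 library, the lone library is assumed to vary like the other group. Library totals in place of TMM gave 20 members lower and moved the calls over all genes to 1809 lower and 1507 higher, against 1446 and 1643. Of the single-member values under an alternative, 339 stayed on their side of the threshold, 37 lost and 9 gained a call, and 0 changed sign with a call. Length-scaled ratios in RETi by coding and by transcript length, an alternative chosen after seeing the data, were 2.47 and 1.99 for MCM5 to MCM2, 1.39 and 0.312 for GINS1 to MCM2, and 0.768 and 1.05 for MCM7 to MCM4.

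The replicate block gave 22 members lower and 3 higher. Same-numbered libraries shared only a number (correlation of deviations 0.025 across genes), so this is no paired result. The block added GINS3 (adjusted p = 0.033), LIG1 (0.025) and TK1 (0.031) as lower and GMNN (0.028) as higher. Depth limits the members under 50 normalised counts, whose SE had a median of 0.346 on the log2 scale, against 0.091 at 300 or more.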
